A study of Mus musculus with 12 samples.

Results

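The natriuretic peptide system was examined as 7 genes, namely the peptides Nppa, Nppb and Nppc, the receptors Npr1, Npr2 and Npr3, and the protease Corin. Its 12 probes were found by gene symbol among the 45281 probes of the array, and each gene was represented by its brightest probe over all arrays. The 7 genes belong to 19057 genes measured in all. RNA came from the atrioventricular canal (AVC), the segment between atrium and ventricle where the endocardial cushions form, and from the primary ventricle, labelled LV, of mouse embryos. Embryos were at embryonic day 9 (E9) or 10 (E10), and total RNA was extracted labelled with biotin and hybridised to Illumina Mouse WG-6 v2 bead arrays. The 4 groups, AVC E9, AVC E10, LV E9 and LV E10, had 3 arrays each. No genotype or treatment is named in the labels, and strain, litter and pooling are not stated in the sources used here. P-values therefore reflect only how far the arrays of a group differ, and that spread may be technical.

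Atrial natriuretic peptide (Nppa) and B-type natriuretic peptide (Nppb) are hormones that heart muscle makes as precursors. Corin, a membrane protease of cardiomyocytes, cuts the atrial precursor. Npr1 is the receptor for both peptides and Npr2 the receptor for C-type natriuretic peptide (Nppc), and both make cyclic GMP when bound, whereas Npr3 removes the peptides from the surroundings of the cell. In the early heart Nppa is a classical marker of chamber muscle, and it is kept low in the muscle of the AVC by the repressors Tbx2 and Tbx3.

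Nppa and Nppb are neighbours on mouse chromosome 4. In RefSeq's annotation of GRCm38.p6, Nppb lies at chr4:147985786-147987205 and Nppa at chr4:148000722-148002074, both on the plus strand. Their transcription starts are 14822 bases apart, with 0 genes between them. The arrays name no genome build, so these positions are from RefSeq. The promoter of Nppa is shown because it is the best known target of the cardiac factors described further on. It covers the 250 bases before the start, at chr4:148000472-148000721 on the plus strand, with searched motifs in capitals.

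Nppa: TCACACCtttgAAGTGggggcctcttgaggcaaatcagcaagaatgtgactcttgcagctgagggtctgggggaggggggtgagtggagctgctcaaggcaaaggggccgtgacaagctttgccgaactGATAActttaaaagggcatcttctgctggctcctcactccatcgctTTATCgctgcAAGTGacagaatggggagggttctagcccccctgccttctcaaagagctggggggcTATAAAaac

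The T-box motif GGTGTGA was found on the reverse strand, as TCACACC, 250 to 244 bases before the start. The NK2 homeodomain motif AAGTG was found 239 to 235 and 65 to 61 bases before the start. The GATA motif GATAA lay 121 to 117 bases before the start, and on the reverse strand, as TTATC, 75 to 71 bases before it. TATAAA lay 9 to 4 bases before the start, against 31 to 26 in Nppb and 29 to 24 in Nppc. All distances are from the listed start, whose accuracy was not tested. Both strands were searched for every motif, and none of these matches overlapped another. Of 32851 RefSeq promoters of this length, 3.33% held the T-box motif, 40.7% the NK2 motif, 22.6% the GATA motif and 12.4% TATAAA. The CArG box, present in 1.47% of promoters, had 0 matches here.

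For Nppb the 2 stretches with matches are shown, since some gene models of it begin upstream of the listed start. The first, chr4:147985801-147985830, covers 99 to 70 bases before the start and holds both GATA motifs. The second, chr4:147985855-147985884, covers 45 to 16 bases before the start and holds TATAAA.

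Nppb, GATA motifs: cagctGATAAatcagaGATAAccccacccc

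Nppb, TATAAA: acactcagccccagTATAAAaggcagaggc

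The T-box and NK2 motifs had 0 matches in the 250 bases of Nppb. Nppc had 1 TATAAA, and the bases searched for Corin, Npr1, Npr2 and Npr3 had 0 matches to the 5 motifs. The annotated genes Npr1, Npr2 and Npr3 also begin upstream of the listed start, and other starts were not searched. Npr2 begins at chr4:43629015, and its listed start is 43631935. A match is a run of letters and not a measured binding site.

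The deposited values are intensities on a linear scale, equal in mean on every array. The background limit of an array was set from its lowest value, taken without its sign, and ran from 22.4 to 29.6. LV E10 replicate 1 resembled LV E9 replicate 2 (r = 0.97 across genes) more than its own group (mean r = 0.933), and AVC E9 replicate 2 and AVC E10 replicate 1 were each closest to the other (r = 0.979), so 3 arrays stood nearer to an array of another group than to their own. Some results are also given without AVC E10 replicate 1 or without LV E10 replicate 1. Others are given without AVC E9 replicate 2 and LV E10 replicate 1 together. No fit left out all 3 arrays. The summed intensity of 11 heart muscle markers, all above background on every array, was 166203 to 174940 in AVC E9 and 171743 to 180087 in LV E9. At E10 it was 148121 to 162263 in the AVC and 143432 to 169589 in the LV. The muscle sums of the tissues overlapped at both ages, and 0 of the 11 genes passed between tissues, although 4 were lower and 1 was higher in the AVC without overlap at E9. At E10, 2 were lower and 1 was higher without overlap. The tissues did not overlap for 26.6% of all genes above background on the 6 arrays compared at E9, and for 24.6% at E10. In tissue RNA, fewer cells of a type and less RNA per cell cannot be told apart.

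**Figure D1:**
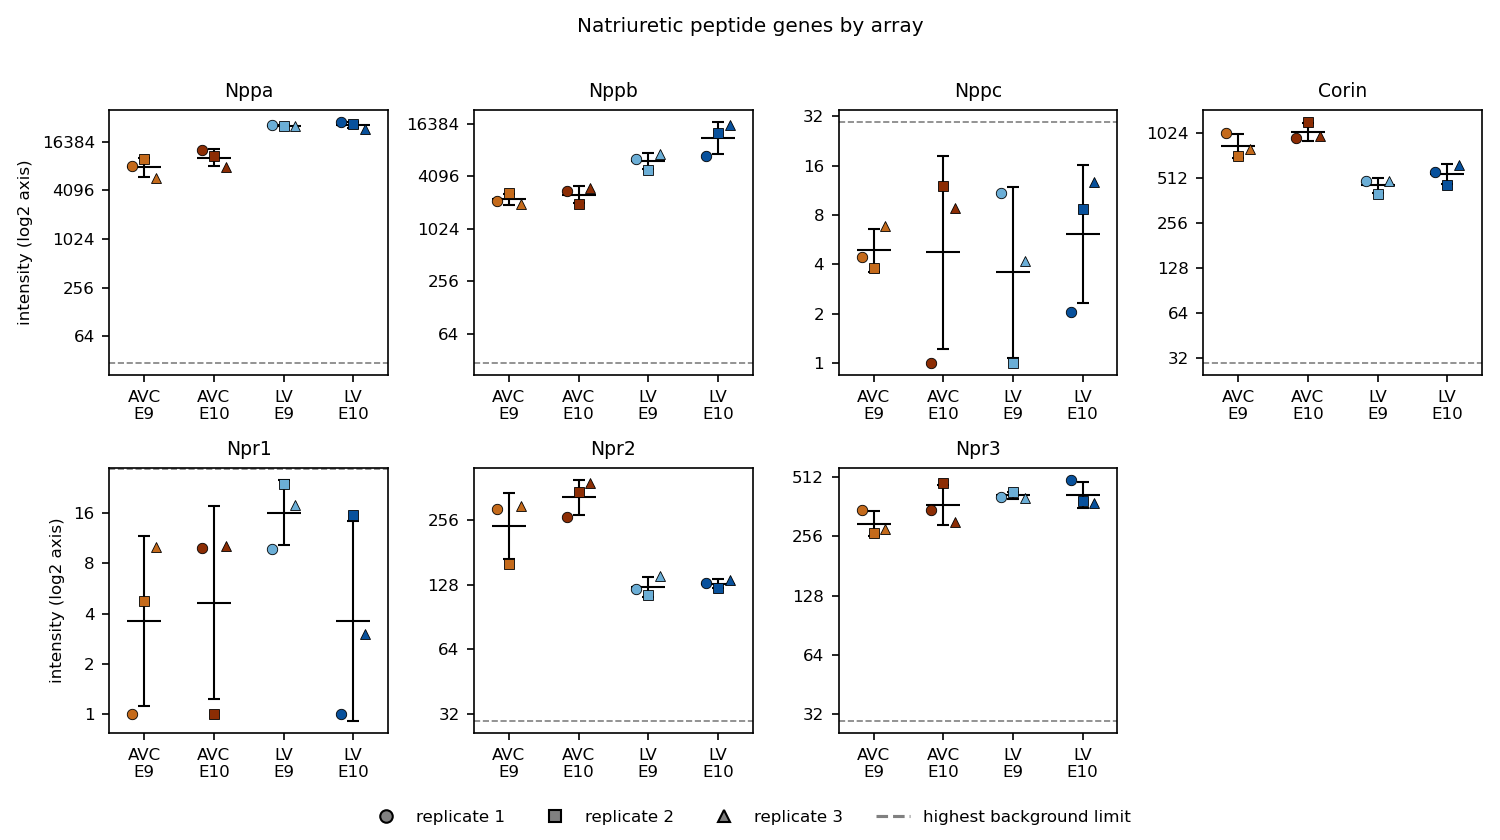
Intensity (log2 axis) of the 7 genes on each array, by group. Points are arrays, bars are the geometric mean and the SD of log2 values (n = 3), the dashed line is the highest background limit, and values under 1 are drawn at 1. Nppa and Nppb lie lower in the AVC than in the LV, Corin and Npr2 lie higher, and all points of Nppc and Npr1 lie under the line.

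Signal above background on all 12 arrays was found for 5 of the 7 genes, Nppa, Nppb, Npr2, Npr3 and Corin. Nppc and Npr1 were above background on 0 arrays, so no fold is given for them. Nppc read -6.1 to 12.8 and Npr1 -6.0 to 24.0 over the 12 arrays. For these probes the signal was not well above background, which does not show that the RNA was absent.

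At E9, 1 of the 7 genes passed the test between the tissues, Nppa, which was lower in the AVC. Of all genes, 1.02% passed in this comparison, 0.855% as higher and 0.168% as lower. At E10, 4 of the 7 passed, with Nppa and Nppb lower and Npr2 and Corin higher in the AVC. Of all genes, 2.3% passed at E10, 2.06% as higher and 0.241% as lower. A gene passed, or was called, at a Benjamini-Hochberg adjusted p under 0.05 in limma. With age, 0 of the 7 passed in either tissue, beside 0.551% of all genes in the AVC and 2.37% in the LV. At an unadjusted p under 0.05, 5 of the 7 passed at E9, 4 at E10, 0 with age in the AVC and 1, Nppb, with age in the LV. The same threshold was met by 11.5% of all genes at E9, 13.9% at E10, 12.5% with age in the AVC and 19.6% with age in the LV. Without AVC E10 replicate 1, Nppa passed at E9 (-1.73, adjusted p = 0.0166), and at E10 Nppa (-1.50, 0.0249), Nppb (-2.23, 0.0332) and Npr2 (1.49, 0.0393) passed while Corin did not (0.99, 0.0603). With age 0 of the 7 passed in that setting.

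The arrays of the tissues did not overlap for 5 of the 5 detected genes at E9 and for 4 of 5 at E10, Npr3 being the exception. Among genes above background on all 6 arrays compared, this held for 26.6% at E9 and 24.6% at E10. The ages overlapped for all 5 genes in both tissues, against non-overlap in 23.6% of such genes in the AVC and 34% in the LV.

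Nppa was bright in every sample. It read 8263.9, 10166.3 and 5909.1 in AVC E9 and 12894.0, 10970.0 and 8062.2 in AVC E10. In the LV it read 26486.1, 25988.3 and 26091.3 at E9 and 28752.1, 27200.2 and 24014.6 at E10. The lowest LV array thus lay above the highest AVC array at either age. The LV E9 arrays were the closest together, at 26189 ± 263 (SD, n = 3), and the AVC E9 arrays were spread, at 8113 ± 2133 (SD, n = 3).

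Nppa was 3.31-fold higher in the LV than in the AVC at E9 (log2 difference of AVC against LV -1.73 ± 0.21 (SE), adjusted p = 0.0144). At E10 it was 2.54-fold higher in the LV, with means of 26656 ± 2415 there and 10642 ± 2433 in the AVC (SD, n = 3; log2 difference -1.35, adjusted p = 0.0223). The order of the groups was AVC E9, AVC E10, LV E9 and LV E10. The AVC ages were not separated (log2 difference of E10 against E9 0.40, 95% interval -0.09 to 0.89, adjusted p = 0.527), nor were the LV ages (0.02, interval -0.47 to 0.51, adjusted p = 1). The E9 call was lost without AVC E9 replicate 1 (adjusted p = 0.0508). The E10 call was lost without AVC E10 replicate 2 or 3 or without LV E10 replicate 2 (adjusted p from 0.062 to 0.0745). Without AVC E9 replicate 2 and LV E10 replicate 1, the differences were -1.91 at E9 and -1.29 at E10, and both passed.

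Nppb was also higher in the LV, with a wider spread between LV arrays. It read 2117.0, 2633.8 and 1995.4 in AVC E9 and 2776.6, 1972.3 and 3002.5 in AVC E10. It read 6458.6, 4901.4 and 7323.0 in LV E9 and 7094.4, 12926.2 and 16079.3 in LV E10. Every LV array lay above every AVC array. Replicate 1 of LV E10 fell within the range of LV E9, while the other LV E10 arrays lay above it.

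At E10 the LV mean of Nppb was 12033 ± 4559 and the AVC mean 2584 ± 541 (SD, n = 3), and the gene was 4.48-fold higher in the LV (log2 difference -2.16 ± 0.31 (SE), adjusted p = 0.0149). At E9 it was 2.75-fold higher in the LV, at 6228 ± 1227 against 2249 ± 339 (SD, n = 3), and did not pass (-1.46, 95% interval -2.17 to -0.75, adjusted p = 0.0783). Without LV E10 replicate 1 the adjusted p at E9 was 0.0219, and without AVC E9 replicate 2 and LV E10 replicate 1 it was 0.0376. The E10 call was lost without AVC E10 replicate 2 or 3 or without LV E10 replicate 2 (adjusted p from 0.0523 to 0.0587).

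Between E9 and E10 in the LV, Nppb differed by 0.89 on the log2 scale (95% interval 0.18 to 1.60, adjusted p = 0.161). Without LV E10 replicate 1 the difference was 1.23 (adjusted p = 0.0186), and Nppb passed. In that setting 2630 genes of 19057 passed, against 452 with all arrays. In the AVC the ages were not separated (0.19, interval -0.52 to 0.90, adjusted p = 0.971). The difference between tissues at E10 minus that at E9, the tissue by age interaction, was -0.70 for Nppb (interval -1.70 to 0.30, adjusted p = 0.937). A larger tissue difference of Nppb at E10 was therefore not shown.

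Of 9 chamber muscle markers, 1 passed as lower in the AVC at each age and 0 as higher, beside 0.168% of all genes as lower at E9 and 0.241% at E10. The marker was Irx2 at E9 (log2 difference -3.21, adjusted p = 0.0339) and Cited1 at E10 (-2.63, adjusted p = 0.0463). The medians of the list were -0.65 and -0.91, and 6 of the 9 were lower in the AVC without overlap at E9 and 3 at E10. Of genes above background on all 6 arrays compared, 26.6% did not overlap at E9 and 24.6% at E10, in either direction. At E9 Gja5 had a mean of 488 in AVC arrays and 433 in LV arrays, and Hand1 had 100.1 and 106. The summed intensity of the 9 genes, 7 of them above background on all 12 arrays and most of it from Myl2, was 24505 to 32452 in AVC E9 and 41604 to 50097 in LV E9, and 29836 to 33239 in AVC E10 and 39068 to 45316 in LV E10. The 7 measured atrial and sinus venosus markers summed to 1369 to 1547 in AVC E9 and 846 to 2949 in AVC E10, against 103 to 198 and 95 to 242 in the LV, with Hcn4 above background on 0 arrays. Most of the AVC E9 sum was Vsnl1, at 1099.1, 967.6 and 1036.9, which the paper counts among genes enriched in the AVC. Of the 7 markers, 4 were higher in the AVC without overlap at each age, and 0 were lower without overlap. At E9 3 of them passed as higher and at E10 2, beside 0.855% and 2.06% of all genes as higher. Sln and Shox2 read 14.3 and 55.7 in AVC E10 replicate 1. In replicates 2 and 3 Sln read 540.9 and 312.8, and Shox2 548.6 and 552.8. The part of chamber and atrial cells in the peptide levels was not tested.

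Npr3 was measured by 6 probes, and their readings with age differed. The brightest, ILMN_3127391, read 349.5, 267.8 and 280.7 in AVC E9 and 346.6, 476.0 and 303.6 in AVC E10. It read 406.1, 432.4 and 401.9 in LV E9 and 496.9, 385.7 and 379.3 in LV E10. The AVC lay below the LV at E9 with no overlap, and at E10 the tissues overlapped. Neither difference passed (log2 -0.48, 95% interval -0.89 to -0.06, adjusted p = 0.333 at E9 and -0.18, interval -0.59 to 0.23, adjusted p = 0.768 at E10). In order, the groups were AVC E9 at 299 ± 43.9, AVC E10 at 375 ± 89.7, LV E9 at 413 ± 16.6 and LV E10 at 421 ± 66.2 (SD, n = 3), and no neighbours in that order were separated, the ages differing by 0.31 in the AVC (adjusted p = 0.577) and 0.01 in the LV (adjusted p = 1).

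The probe ILMN_2604333, annotated to the same transcript, showed a difference with age. It read 132.3, 144.5 and 129.9 in AVC E9 and 221.4, 234.6 and 198.2 in AVC E10. In the LV it read 166.7, 178.0 and 172.5 at E9 and 281.3, 306.3 and 328.9 at E10. The ages did not overlap in either tissue, and the AVC lay below the LV at each age.

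By this probe Npr3 rose with age by 0.68 ± 0.08 (SE, log2; adjusted p over all probes = 0.0184) in the AVC and by 0.82 ± 0.08 (adjusted p = 0.00484) in the LV. The age difference in the AVC did not pass after quantile normalization (adjusted p = 0.13), and that in the LV did (0.0344). The AVC was lower than the LV at E10 (-0.49, adjusted p = 0.0311, and 0.0846 after quantile normalization), and at E9 the difference was -0.35 (adjusted p = 0.123). Leaving out 1 array lost the age call in the AVC without AVC E10 replicate 2 or AVC E9 replicate 3, and the tissue call at E10 in 9 of 12 fits (every array but AVC E9 replicate 2, AVC E10 replicate 2 and LV E10 replicate 1), whereas the age call in the LV was kept in all 12. The probe ILMN_1236914, differed with age by 1.30 in the AVC (adjusted p = 0.534) and by 1.31 in the LV (adjusted p = 0.332), with AVC E9 arrays from 31.1 to 164.9. ILMN_2496537, like the brightest probe, had differences of 0.45 and 0.00 (adjusted p = 0.576 and 1). The remaining probes, ILMN_1231426 and ILMN_2568364, were at or near background. Which transcripts of Npr3 each probe reads was not tested, and the change of Npr3 with age depends on the probe.

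**Figure D2:**
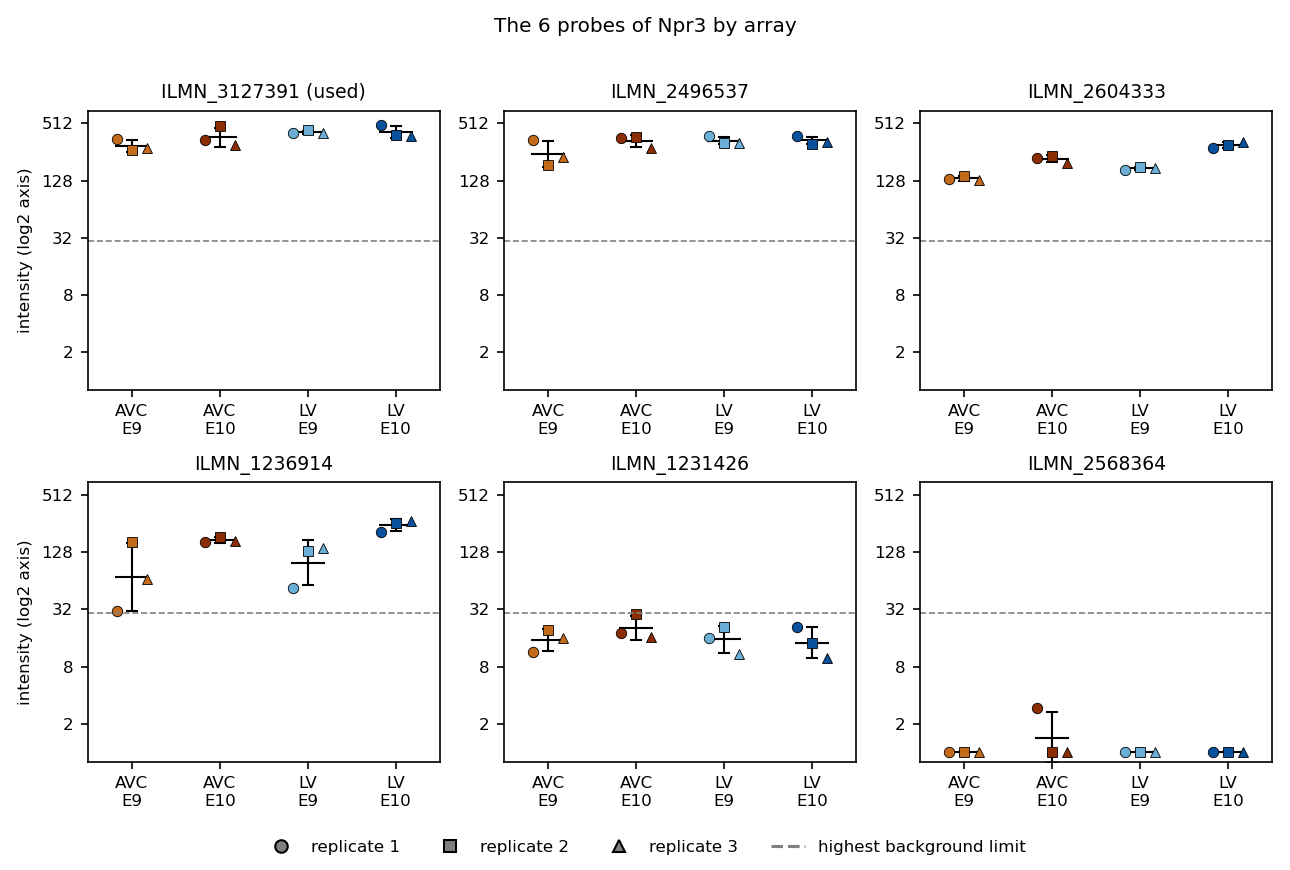
Intensity (log2 axis) of the 6 Npr3 probes on each array, by group, with the geometric mean and SD of log2 values (n = 3) and the highest background limit as a dashed line. ILMN_2604333 lies higher at E10 than at E9 in both tissues, whereas the ages overlap for ILMN_3127391, the probe used for the gene.

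Npr2 ran opposite to the peptides. It read 288.6, 159.2 and 298.9 in AVC E9 and 265.0, 348.2 and 380.7 in AVC E10. It read 122.2, 114.2 and 140.7 in LV E9 and 130.8, 122.9 and 135.2 in LV E10. Every AVC array lay above every LV array, and the lowest of them, AVC E9 replicate 2, is one of the arrays nearer to another group.

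At E10 Npr2 was 2.53-fold higher in the AVC, at 331 ± 59.6 against 130 ± 6.21 in the LV (SD, n = 3; log2 difference 1.34 ± 0.24 (SE), adjusted p = 0.0312). At E9 the means were 249 ± 77.8 and 126 ± 13.6, and the difference of 0.94 did not pass (95% interval 0.39 to 1.48, adjusted p = 0.134). Without AVC E9 replicate 2 and LV E10 replicate 1 the E9 difference was 1.23 (adjusted p = 0.0269). The E10 call was lost in 5 of the 12 fits that left out 1 array, namely without AVC E10 replicate 2 or 3, LV E9 replicate 1, or LV E10 replicate 2 or 3 (adjusted p up to 0.121). From lowest to highest, the groups were LV E9, LV E10, AVC E9 and AVC E10. The ages were not separated in the LV (0.05, interval -0.50 to 0.60, adjusted p = 1) or in the AVC (0.45, interval -0.10 to 0.998, adjusted p = 0.517).

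Corin, like Npr2, was higher in the AVC. It read 1021.1, 717.0 and 806.7 in AVC E9 and 951.6, 1218.9 and 972.3 in AVC E10. In the LV it read 491.8, 402.6 and 487.7 at E9 and 560.9, 463.0 and 630.3 at E10. Every AVC array lay above every LV array. The protease that cuts the atrial peptide precursor was thus brighter in the tissue where Nppa was dimmer.

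At E10 the AVC mean of Corin was 1048 ± 149 and the LV mean 551 ± 84.1 (SD, n = 3). The gene was 1.90-fold higher in the AVC (log2 difference 0.93 ± 0.17 (SE), adjusted p = 0.0342). At E9 it was at 848 ± 156 against 461 ± 50.4, a difference of 0.87 that did not pass (95% interval 0.48 to 1.26, adjusted p = 0.0602). The E10 call depended on the setting. It did not pass after quantile normalization (0.79, adjusted p = 0.0583), after median scaling (0.71, adjusted p = 0.0692), or in 8 of the 12 fits that left out 1 array (without AVC E10 replicate 1, 2 or 3, AVC E9 replicate 3, LV E9 replicate 1 or 3, or LV E10 replicate 1 or 2, with adjusted p up to 0.108). The groups stood in the order LV E9, LV E10, AVC E9 and AVC E10, and the ages were not separated in the LV (0.25, interval -0.14 to 0.64, adjusted p = 0.471) or in the AVC (0.31, interval -0.08 to 0.70, adjusted p = 0.54).

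Cushion mesenchyme markers also stood higher in the AVC, where Npr2 and Corin were higher. The 5 measured genes, 3 of them above background on all arrays, summed to 2938 to 4473 in AVC E9 and 5441 to 6556 in AVC E10, against 736 to 1192 in LV E9 and 930 to 1771 in LV E10. The summed intensity of 8 endocardial markers, with Kdr above background on 0 arrays, overlapped between the tissues, at 2417 to 3634 in AVC E9, 2989 to 3440 in LV E9, 4559 to 5840 in AVC E10 and 4712 to 6380 in LV E10. Single endocardial genes differed in both directions. Nfatc1, a factor of the endocardium, was higher in the AVC at E10, at 544 against 212 (1.36, adjusted p = 0.0138), the 1 of 8 that passed, beside 2.06% of all genes as higher. Without overlap but short of the threshold, Tek was at 1945 in AVC E10 and 1324 in LV E10 (adjusted p = 0.0727), and Emcn was at 1488 and 3103 (adjusted p = 0.166). At E9 0 of the 8 passed, and 2 were higher and 2 lower in the AVC without overlap. The share without overlap among genes above background on all 6 arrays compared was 26.6% at E9 and 24.6% at E10. The part of these cells in the levels of Npr2 and Corin was not tested.

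**Figure D3:**
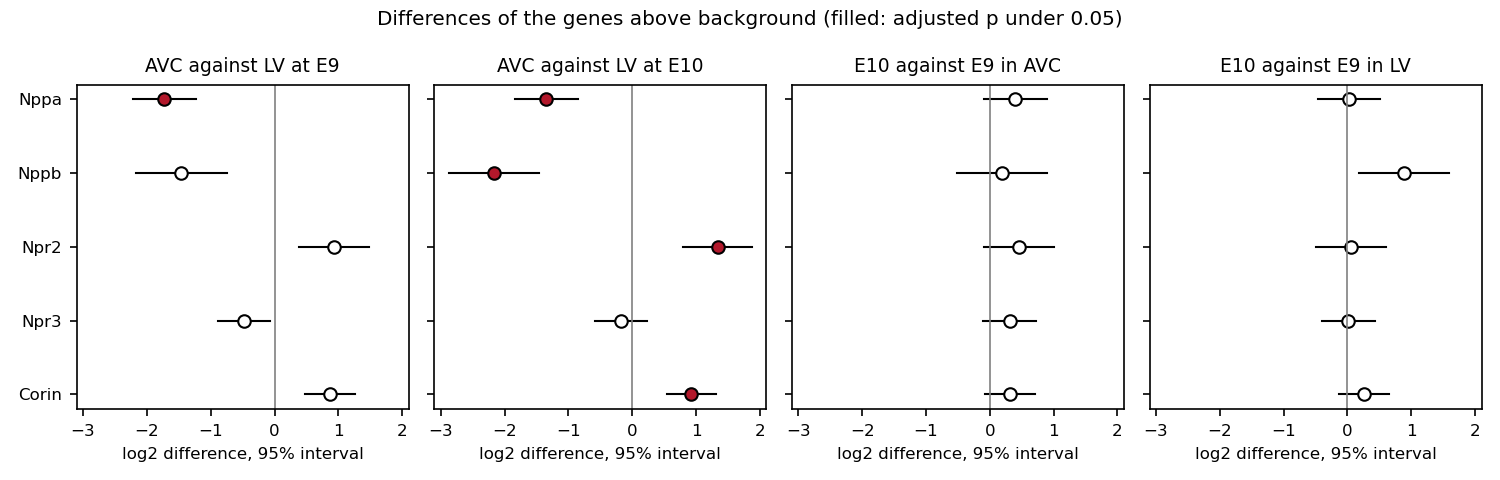
Log2 differences with 95% intervals for the 5 genes above background, in the tissue comparison at each age and the age comparison in each tissue. Filled points passed at an adjusted p under 0.05 in limma, which was Nppa at E9, Nppa, Nppb, Npr2 and Corin at E10, and none with age.

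In the tissue by age interaction 0 of the 7 genes passed, beside 0.0315% of all genes, and 0 had an unadjusted p under 0.05, beside 4.71% of all genes. The interaction was 0.38 for Nppa, 0.40 for Npr2, 0.30 for Npr3 and 0.06 for Corin. No change of the tissue difference between E9 and E10 was detectable with 3 arrays in a group.

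Across the 12 arrays the peptides varied together, and so did Npr2 and Corin. Pearson's r of log2 intensity was 0.854 between Nppa and Nppb and 0.931 between Npr2 and Corin. It was -0.879 between Nppa and Npr2 and -0.818 between Nppa and Corin. The arrays share 4 groups, so these values mostly describe group differences and carry no test.

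Of 8340 genes above background on all arrays, those most like each gene were ranked by the same measure over the 12 arrays. Nppb was most like Cited1 (r = 0.963), a transcriptional coregulator, with group means of 150 in AVC E9, 287 in AVC E10, 803 in LV E9 and 2083 in LV E10. Next came the gap junction gene Gja1 and the mitochondrial carrier gene Slc25a13 (both r = 0.928). Nppa was most like Clec4g (r = 0.925), Arhgef3 (0.909) and Acer3 (0.906).

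Npr2 was most like Nkd1, an inhibitor of Wnt signalling (r = 0.981), with means of 167 in AVC E9, 215 in AVC E10, 84.7 in LV E9 and 87.7 in LV E10. The cardiac transcription factor gene Gata6 (0.97) and Pdlim7 (0.969) followed. Corin was most like Mex3a (0.968), Gata6 and Lhfpl2 (both 0.96), so Gata6 stood among the nearest genes of both. For Npr3 the values were lower, with Dock6 at 0.853, Exoc3l at 0.851 and Tubb1 at 0.834.

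The other genes of the pathway were taken as lists, which were chosen with earlier results of these data known. A list of 6 genes tied to processing, breakdown or clearance of the peptides held Furin, Pcsk5, Pcsk6, Mme, Ide and Ostn. Ostn was above background on 0 arrays. Of the 6 genes, 1 was higher and 1 lower in the AVC at E9, and 1 was higher at E10. Of all genes, 0.855% passed as higher and 0.168% as lower at E9, and 2.06% as higher at E10. The median log2 differences of the list were -0.08 and -0.01, beside 0.00 and 0.07 over all genes tested. Of those 19057 genes, 8340 were above background on all 12 arrays. Furin, the protease that cuts many precursors including that of B-type natriuretic peptide, was the higher gene at both ages. It read 2805.1, 2182.6 and 2590.4 in AVC E9 and 1418.2, 1309.5 and 1515.7 in LV E9, then 3348.7, 2751.4 and 2928.4 in AVC E10 and 1134.9, 1083.0 and 1099.6 in LV E10. The tissues did not overlap, and the fold was 1.78 at E9 (log2 0.83 ± 0.10 (SE), adjusted p = 0.0144) and 2.71 at E10 (1.44 ± 0.10, adjusted p = 0.000966). Without AVC E10 replicate 1, Mme also passed at E10 and with age in both tissues. Furin passed at both ages in all 12 fits that left out 1 array. It did not pass at E9 when only the groups compared were fitted (adjusted p = 0.101). Its interaction of 0.61 did not pass (adjusted p = 0.557).

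Pcsk6, the related protease that activates Corin, was the lower gene at E9. It read 87.2, 50.2 and 53.7 in AVC E9 and 360.2, 193.6 and 233.1 in LV E9, without overlap (log2 difference -2.04, adjusted p = 0.033). At E10 the tissues overlapped, the AVC at 164 ± 47.8 and the LV at 205 ± 45.8 (SD, n = 3; -0.34, adjusted p = 0.747). The E9 call was lost in 8 of the 12 fits that left out 1 array (without any 1 array of AVC E9 or LV E9, AVC E10 replicate 3 or LV E10 replicate 2, with adjusted p up to 0.0915), and the interaction of 1.69 did not pass (adjusted p = 0.674).

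Beside the receptors, 0 of 8 other guanylate cyclases passed in any of the 5 comparisons. The same held for 0 of 10 genes listed as cyclic GMP phosphodiesterases, Pde6d among them. The smallest adjusted p were 0.125 and 0.058. These counts depended on the arrays and the setting. Without LV E10 replicate 1, Gucy1b1 and Pde1a passed with age in the LV. Pde1a also passed there without AVC E9 replicate 2 or 3, and between tissues at both ages without AVC E9 replicate 3. All 6 E9 arrays of Pde1a were under background, so it has no usable tissue difference at E9. The size of its age differences depends on the floor. With a floor of 16 it passed at E10 and with age in the AVC. Gucy1a1 passed with age in the AVC with an offset of 50. Over all alternatives the cyclases gave 0 or 1 call in a comparison and the phosphodiesterases 0 to 2. The subunits of the soluble guanylate cyclase had the smallest p of their list. Gucy1a1 was at 868 ± 213 in AVC E9 and 1950 ± 491 in AVC E10 (SD, n = 3; adjusted p = 0.125), and Gucy1b1 at 239 ± 60.6 and 469 ± 85.1 (adjusted p = 0.225). Of the phosphodiesterases, Pde1a read 108.5, 297.2 and 305.5 in AVC E10 and was above background on 0 of the 6 E9 arrays, with an adjusted p of 0.082 for age in the AVC. Pde10a was at 147 ± 41.0 in AVC E9 and 81.2 ± 13.7 in AVC E10 (SD, n = 3; adjusted p = 0.389).

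Of 8 effectors of cyclic GMP, 1 passed in 1 comparison in the fit reported, with age in the LV, where 2.37% of all genes passed. Prkg1, the kinase that cyclic GMP activates, fell with age in the LV, from 1651.9, 858.4 and 1308.4 at E9 to 380.1, 277.0 and 310.3 at E10. The ages did not overlap, and the log2 difference was -1.94 ± 0.33 (SE; adjusted p = 0.032). In the AVC the difference was -1.39 (adjusted p = 0.115) and the interaction was 0.55 (adjusted p = 0.937), so the tissues were not shown to differ in it. The call was lost in 6 of the 12 fits that left out 1 array, namely without LV E9 replicate 1 or 3, LV E10 replicate 2 or 3, AVC E9 replicate 1 or AVC E10 replicate 3. Without LV E10 replicate 1, 3 effectors passed with age in the LV (Mrvi1, Pln and Prkg1) and 1, Mrvi1, between tissues at E10. Without AVC E10 replicate 1, Cnga3 passed with age in the AVC. Over all alternatives the count ran from 0 to 4 with age in the LV, 0 to 3 with age in the AVC and 0 to 1 at E10, and was 0 at E9.

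Of 21 transcription factors that act on the Nppa or Nppb promoter, 19 were measured. At E9, 2 were higher in the AVC and 0 lower, and at E10, 4 were higher and 0 lower. Of all genes, 0.855% passed as higher at E9 and 2.06% at E10, and 0.168% and 0.241% as lower. The median log2 difference of the list was 0.63 at each age, beside 0.00 and 0.07 over all genes. The all-gene median includes many genes near background, so it is not that of expressed genes. With age 0 passed in the fit reported, and in the interaction 0 passed in that fit and in 22 alternatives. With age in the LV the smallest adjusted p was 0.0504 in the fit reported, and the count differed from 0 in 11 of 23 alternatives, up to 5. Myocd passed in each of those, and alone after quantile normalization, median scaling, the filter on dim probes and the mean of all probes. The count was 4 without LV E10 replicate 1 (Hand2, Myocd, Tbx20 and Tbx3), 2 without AVC E9 replicate 2 (Myocd and Srf) and 2 without AVC E10 replicate 1 (Hey1 and Myocd). With age in the AVC it was 0 in all 23 alternatives. Leaving out 1 array gave 0 to 5 factors at E9 and 0 to 5 at E10. At both ages 5 was without LV E10 replicate 1, and 0 was without AVC E9 replicate 1 at E9 and without AVC E10 replicate 3 or LV E10 replicate 2 at E10. Fitting only the groups compared gave 0 factors at each age. An offset of 50 gave 6 at E9 and 7 at E10.

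The T-box repressors Tbx2 and Tbx3 were higher where Nppa was lower. Tbx2 read 341.0, 201.8 and 261.9 in AVC E9 and 212.4, 165.3 and 191.0 in AVC E10. It was above background on 1 array of LV E9 and on 1 of LV E10, where it read 30.6 and 33.6. It passed at both ages (adjusted p = 0.0324 and 0.026), and its log2 differences of 4.03 and 3.85 depend on how values near background are treated. Leaving out 1 array lost the E9 call in 9 of 12 fits (every array but LV E9 replicate 1 and LV E10 replicates 1 and 3) and the E10 call in 4 (each AVC E10 array and LV E10 replicate 2).

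Tbx3 read 1002.8, 570.0 and 814.0 in AVC E10 and 185.9, 57.5 and 54.0 in LV E10 (log2 difference 3.22, adjusted p = 0.0304). At E9 it was at 1162 ± 530 against 281 ± 88.8 (SD, n = 3; 1.97, adjusted p = 0.188). The tissues overlapped at neither age. The E10 call was lost without each AVC E10 array, AVC E9 replicate 3, LV E9 replicate 3, and LV E10 replicate 2 or 3.

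Hey1, a transcriptional repressor, was 4.72-fold higher in the AVC at E9, at 1774 ± 246 against 381 ± 90.2 (SD, n = 3; log2 difference 2.24, adjusted p = 0.0143), and at 1461 ± 575 against 747 ± 72.9 at E10 (0.90, adjusted p = 0.156). Without AVC E9 replicate 1 the E9 call was lost (adjusted p = 0.0508). The activator Gata6 was at 4921 ± 317 in AVC E10 and 2629 ± 327 in LV E10 (log2 difference 0.91, adjusted p = 0.0155), and at E9 the difference was 0.62 (adjusted p = 0.0779). Nfatc4, a calcineurin-responsive activator, was 4.79-fold higher in AVC E10, at 793 ± 236 against 163 ± 42.8 (2.26, adjusted p = 0.014), with 1.63 at E9 (adjusted p = 0.0583). The E10 calls of Gata6 and Nfatc4 were lost without AVC E10 replicate 3 or LV E10 replicate 2, and that of Gata6 also without AVC E10 replicate 2. The called factors thus included both repressors and activators of cardiac promoters. The core factors Nkx2-5, Gata4 and Tbx5, with motifs of their families in the Nppa promoter, passed in 0 of the 5 comparisons, and of the 3 only Gata4 passed in an alternative, at E10 with an offset of 50.

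**Figure D4:**
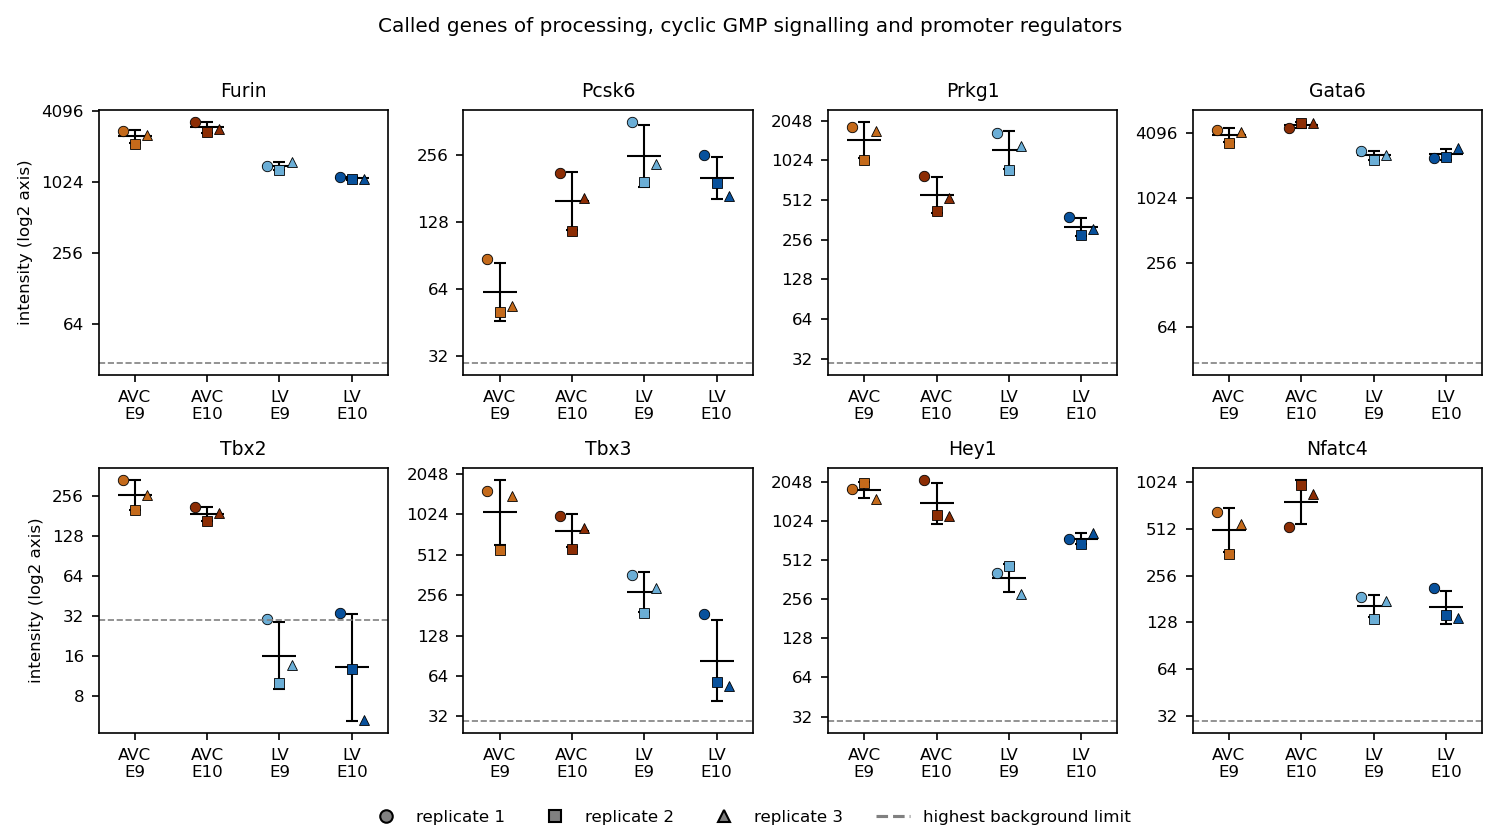
Intensity (log2 axis) of the 8 called genes of the processing, cyclic GMP effector and transcription factor lists on each array, with the geometric mean and SD of log2 values (n = 3) and the highest background limit as a dashed line. Furin, Gata6, Tbx2, Tbx3, Hey1 and Nfatc4 lie higher in the AVC, Pcsk6 lies lower in AVC E9 alone, and Prkg1 lies lower at E10 in both tissues, a fall that passed in the LV.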

How the data were processed

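RNA of 12 samples in 4 groups was measured on 1-colour bead arrays. The deposited values are intensities that the authors background subtracted and scaled to 1 mean: 34.7% of them were below 0 and every array had the same mean. The program that made them, the chip of each sample and the origin of replicates are not stated in the sources used here; chip could not be tested as a batch. The methods name GeneSpring GX, a filter on signals below background, and thresholds of 4-fold and p of 0.01.

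Probes were joined to genes by the platform annotation (34885 with 1 symbol, 18 with several, 10378 with none, the last sets left out of gene results). Values under 1 were set to 1, which changed 36.8% of values, and log2 was taken. A log2 fold difference of low probes depends on that floor. The 4 groups were fitted together over all probes in limma 3.58.1 (R 4.3.3, statmod 1.5.0, data.table, version 1.17.8) with 5 contrasts. P-values are two-sided and adjusted over 19057 genes, or over all 45281 probes where single Npr3 probes are given. Whether the replicate numbers of the labels pair samples is not stated in the sources used here, and the main fit did not use them. Residuals of same-numbered arrays of the tissues correlated from 0.094 to 0.276 at E9 and from -0.098 to 0.121 at E10. Between ages they correlated from -0.319 to 0.131.

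Named genes were the 7 genes, list genes called in any comparison or else the 2 of a list with the smallest p, and the 3 genes most correlated with each detected gene. The genes and lists were chosen with earlier results of these data known. The marker lists were those of muscle, chamber, atrium, AVC, endocardium, cushion, epicardium, erythroid and endoderm cells. Alternatives were another normalization, floor, offset, filter, probe summary, sample set, block, variance model, call rule and each array left out. After seeing the data, leaving out AVC E9 replicate 2 with LV E10 replicate 1, moderating variance over genes above background, the single Npr3 probe and the list genes were added. The code was tested on simulated data. Promoters are RefSeq sequences of GRCm38.p6, found for 7 of the 7 genes. List genes without a named probe were not analysed here.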

Additional observations from a re-analysis of the deposited data

How the results depend on the processing

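With 3 arrays in a group, most calls lay near the threshold. Nppa and Nppb kept their direction between tissues under every alternative run. At E9 the number of the 7 genes called was 1 as reported and 3 with an offset of 50, with the filter on dim probes, with AVC E9 replicate 2 and LV E10 replicate 1 left out, and with variance moderated over genes above background. It was 0 when only the groups compared were fitted and 0 at the thresholds of the methods. Nppb at E9 passed in those 4 settings, at -1.44 with the offset (adjusted p = 0.00997), -1.46 with the filter (0.0463), -1.58 without those 2 arrays (0.0376) and -1.46 with the moderated variance (0.0223). At E10 the number was 4 as reported, 0 when only the groups compared were fitted and 1, Nppb, at the thresholds of the methods. Fitting only the groups compared gave Nppa -1.73 at E9 (adjusted p = 0.0843), and Nppb -2.16 (0.14) and Nppa -1.35 (0.115) at E10. With age in the LV the number was 1, Nppb, without those arrays. Small differences changed sign: Nppa with age in the LV was -0.042 after quantile normalization and -0.035 without those 2 arrays, Npr3 there was -0.11 without those 2 arrays, and the interaction of Corin was -0.0037 after quantile normalization, -0.061 after median scaling and -0.038 without those 2 arrays. Leaving out each array in turn gave 0 to 2 genes called at E9, 0 to 4 at E10, 0 to 0 with age in the AVC and 0 to 1 in the LV. In those fits Nppa ran from -1.91 to -1.51 at E9 and -1.50 to -1.16 at E10, and Nppb from -1.62 to -1.33 and from -2.50 to -1.91. The interaction of Corin ran from -0.063 to 0.20, and with age in the LV Npr3 ran from -0.11 to 0.083, Nppa from -0.035 to 0.095 and Npr2 from -0.017 to 0.13. With the replicate number as a block, Nppa, Nppb and Npr2 passed at E10 and Corin did not (0.93, adjusted p = 0.056), and Nppa passed at E9. Whether the numbers pair samples is not known. Over all genes the counts of calls moved by more than 1.5 times in several settings, from 59 to 422 beside 195 at E9, 72 to 1604 beside 438 at E10, 21 to 1240 beside 105 with age in the AVC and 54 to 3652 beside 452 in the LV, where the lowest count was without LV E10 replicate 2. The cause was not tested. Genes near background, Nppc and Npr1 among them, have no usable difference.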

Other observations

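Of 4 measured epicardial markers, 1 passed as higher at E10 in the AVC and 2 in the LV, beside 0.551% and 2.37% of all genes in either direction. The 4 markers summed to 559 to 854 in AVC E9 and 4800 to 5369 in AVC E10, and to 278 to 877 in LV E9 and 2890 to 6495 in LV E10, without overlap between ages. Erythroid markers, all 7 above background on every array, summed to 108331 to 123480 in AVC E9, 106294 to 139180 in AVC E10, 131326 to 159921 in LV E9 and 109866 to 170224 in LV E10. The 6 AVC muscle markers summed to 2916 to 5039 in AVC E9 and 1345 to 1646 in LV E9, and to 2054 to 4126 in AVC E10 and 449 to 1012 in LV E10. Endoderm and liver markers summed to 69.4 to 2679 over all arrays.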
